A study of Mus musculus with 4 samples.

Results

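The Ifi200 cluster is a row of genes on mouse chromosome 1 that encode PYHIN proteins. It was studied here as the 10 loci with a transcript ID, of 15883 such loci in the table, whose deposited position (build mm9) overlaps chromosome 1 from 175280000 to 175920000. The window was chosen by position after a run of loci had been seen there with higher FPKM values in the pretreated than in the naive library of the same table, so every difference below is a description and carries no test. Values were taken from 2 of the 4 libraries of the series, both from mouse embryonic fibroblasts (MEFs), cells grown from mouse embryos. The strain is C57BL/6, and in all groups the H3f3b gene, one of the genes for histone H3.3, was replaced by a cDNA of HA-tagged H3.3 (H3.3-HA knock-in). The naive 1 h library came from cells labelled naive and treated for 1 h with interferon-beta at 100 U/ml, and the pretreated 1 h library from cells labelled pretreated and treated in the same way. The agent, dose and length of the pretreatment are not in the labels, nor is the number of embryos or cultures. The libraries at 0 h were not analysed here. An induction by 1 h of interferon-beta in either state was therefore not measured, and with 1 library per group no value has a replicate error. The series title names RNA-seq, while each sample's description reads scTSS-seq; the values were treated as RNA-seq.

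PYHIN proteins usually join a pyrin domain, which recruits partner proteins, to a HIN domain, which binds DNA. Aim2 senses double-stranded DNA in the cytosol and builds an inflammasome with the adaptor Pycard (ASC) and caspase-1. Many of its relatives in this cluster are mainly nuclear and were first found as interferon-inducible genes. Type I interferons act through the complex ISGF3, which binds the interferon-stimulated response element (ISRE) in promoters of its targets.

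The deposited table carries UCSC transcript IDs and no gene symbols. Symbols were therefore assigned from distances within each build: a locus was named where both of its ends lay, within 25 bp, as far from the nearest anchor locus as the ends of 1 annotated gene do in the GRCm38 annotation. Anchors were loci whose span equals that of an annotated gene to the base and that keep the annotated distance to a neighbouring anchor. In the cluster, 5 loci were named, each with a span of its own: Aim2 (XLOC_000609, 175350735 to 175396167), Ifi209 (XLOC_000610, 175560990 to 175578059), Ifi208 (XLOC_000611, 175603811 to 175628523), Ifi207 (XLOC_001328, 175653579 to 175671878) and Ifi203 (XLOC_001331, 175850534 to 175872623). The other 5 loci share a span with another locus and have no symbol of their own. XLOC_001325, XLOC_001326 and XLOC_001327 all carry the span from 175398609 to 175529405, whose ends match Ifi206 on one side and Ifi213 on the other and which also holds Ifi214. XLOC_001329 and XLOC_001330 both carry the span from 175677425 to 175844310. Its lower end matches the lower end of Ifi204, and its upper end matches no annotated gene. Of the PYHIN genes it holds Ifi204, Mndal and Ifi211. Which of these genes each locus stands for was not resolved. Of 13 annotated genes of the family, Ifi202b matched no locus of the table and was not analysed here, and Ifi205 lay just outside the window.

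Promoters of the cluster genes are printed because many of them hold a shared element, whose link to the values was not tested. They come from RefSeq, with positions in GRCm38.p6 and not in the build of the table, were matched by gene symbol, and run from 250 bases before to 50 bases after the annotated start site; 12 of the 13 genes had at least 1, and Ifi204 had none. The ISRE core GAAANNGAAA was searched on both strands. It was found in promoters of 9 of the 12 genes (75%), against 1079 of all 27025 genes searched. By promoter, it was found in 10 of their 14, against 3.44% of all 32851 promoters of that length. The 9 genes were Ifi206, Ifi214, Ifi213, Ifi208, Ifi207, Mndal, Ifi211, Ifi203 and Ifi205. These genes are copies of one another, so their matches are not independent. The core of the gamma-activated site, TTCNNNGAA, reads the same on both strands. It was found for 1 of the 12 genes, Ifi202b, against 2582 of all 27025 genes. By promoter, it was found in 1 of the 14, against 8.30% of all promoters. Below are the promoters of the 5 genes that have a locus of their own, in lower case with ISRE cores in capitals.
Aim2, chr1:173420354-173420653, + strand: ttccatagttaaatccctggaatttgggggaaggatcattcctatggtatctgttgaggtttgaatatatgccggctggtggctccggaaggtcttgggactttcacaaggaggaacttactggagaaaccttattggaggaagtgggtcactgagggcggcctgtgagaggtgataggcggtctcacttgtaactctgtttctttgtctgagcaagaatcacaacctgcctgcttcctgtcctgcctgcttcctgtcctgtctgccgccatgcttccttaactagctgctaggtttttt
Ifi209, chr1:173630609-173630908, + strand: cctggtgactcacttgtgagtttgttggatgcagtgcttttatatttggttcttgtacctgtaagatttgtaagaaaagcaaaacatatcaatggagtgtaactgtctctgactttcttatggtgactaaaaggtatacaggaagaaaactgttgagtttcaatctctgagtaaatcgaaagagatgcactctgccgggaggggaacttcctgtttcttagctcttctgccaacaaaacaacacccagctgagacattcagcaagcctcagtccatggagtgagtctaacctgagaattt
Ifi208, chr1:173673415-173673714, + strand: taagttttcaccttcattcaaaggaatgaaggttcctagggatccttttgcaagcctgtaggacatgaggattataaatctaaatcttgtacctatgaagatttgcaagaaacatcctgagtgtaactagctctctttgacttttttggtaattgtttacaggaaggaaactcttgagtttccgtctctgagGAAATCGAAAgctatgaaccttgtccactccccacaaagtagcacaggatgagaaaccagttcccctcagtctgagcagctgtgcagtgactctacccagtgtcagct
Ifi207, chr1:173741760-173742059, - strand: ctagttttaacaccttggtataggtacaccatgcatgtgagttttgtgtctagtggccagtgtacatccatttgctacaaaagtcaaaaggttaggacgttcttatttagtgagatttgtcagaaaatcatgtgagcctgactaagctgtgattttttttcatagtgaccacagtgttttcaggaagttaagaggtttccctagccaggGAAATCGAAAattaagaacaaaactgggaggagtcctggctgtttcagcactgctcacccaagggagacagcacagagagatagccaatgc
Ifi203, chr1:173942443-173942742, - strand: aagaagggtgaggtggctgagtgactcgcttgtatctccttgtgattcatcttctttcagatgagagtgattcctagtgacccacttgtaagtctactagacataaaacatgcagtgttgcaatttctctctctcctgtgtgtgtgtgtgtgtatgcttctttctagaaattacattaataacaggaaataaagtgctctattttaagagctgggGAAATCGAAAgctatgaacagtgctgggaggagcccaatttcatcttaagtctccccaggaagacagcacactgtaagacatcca

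In these 5 promoters the core began 58 bases before the start site of Ifi208, 41 before that of Ifi207 and 35 before that of Ifi203. A second annotated start of Ifi203 had no core in its window. The windows of Aim2 and Ifi209 held no core, which says only that these letters are not in those 300 bases.

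The next set lines up 40 bases around the element for every cluster gene with a core on the gene's own strand, together with the corresponding stretch of Ifi209, found as its best ungapped match to Ifi214. Capitals mark the 10 bases of the element or of the stretch in its place.
Ifi206: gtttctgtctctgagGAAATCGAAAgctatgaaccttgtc
Ifi213: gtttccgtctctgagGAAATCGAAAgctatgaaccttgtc
Ifi208: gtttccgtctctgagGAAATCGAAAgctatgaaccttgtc
Ifi214: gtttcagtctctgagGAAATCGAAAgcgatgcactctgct
Ifi209: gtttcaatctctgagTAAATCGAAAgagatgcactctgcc
Ifi207: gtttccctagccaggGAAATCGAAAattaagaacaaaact
Mndal: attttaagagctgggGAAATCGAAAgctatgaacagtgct
Ifi203: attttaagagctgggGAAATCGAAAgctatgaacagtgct
Ifi211: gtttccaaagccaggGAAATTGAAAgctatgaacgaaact
Ifi205: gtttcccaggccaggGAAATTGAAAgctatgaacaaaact

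The Ifi213 stretch equals that of Ifi208 at 40 of 40 bases and the Ifi206 stretch at 39. The Ifi209 stretch equals that of Ifi214 at 36 of 40 bases, and within the element it differs by G1T, counted from 1 at the 5′ end of the element with the Ifi214 base first. Against Ifi208, the elements of Ifi211 and Ifi205 both carry C6T. Mndal and Ifi203 have the same 10 bases as Ifi208, but over the whole stretch each equals Ifi208 at 28 of 40 bases. The Mndal and Ifi203 stretches are the same as each other at all 40 bases.

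**Figure D1:**
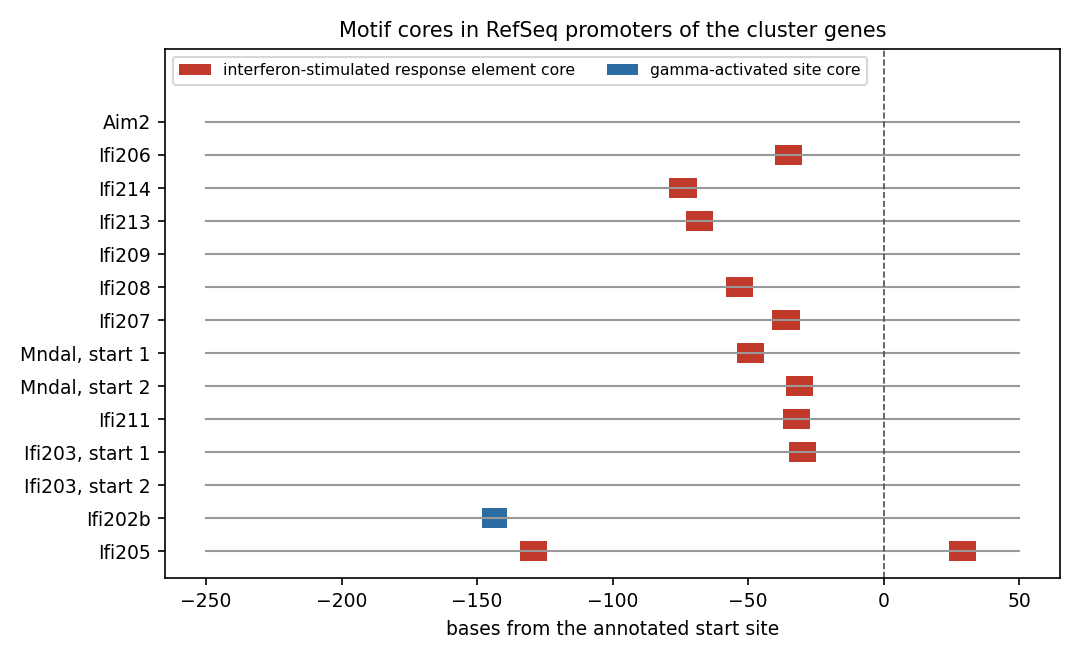
Positions of motif cores (boxes) in 14 RefSeq promoters of 12 cluster genes, with bases from the annotated start site on the horizontal axis and 1 promoter per line. Red boxes mark the ISRE core in 10 promoters and the blue box marks the gamma-activated site core of Ifi202b; Aim2, Ifi209 and 1 start of Ifi203 have neither.

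Across the cluster, the value was higher in pretreated than in naive cells at 10 of 10 loci. The gap was small at Ifi203 (ratio 1.02) and XLOC_001326 (ratio 1.25). Over all loci with a transcript ID and an estimate, the pretreated value was higher at 42%, with equal values counted as not higher. It was also higher at 10 of the 13 loci within 1 Mb of the window, most of them low in both libraries. Values are FPKM, fragments scaled by transcript length and by library size. The naive values ran from 0.0190 to 89.7 FPKM and the pretreated values from 0.129 to 202 FPKM. Summed over the 10 loci, the cluster had 142 FPKM in naive cells and 310 FPKM in pretreated ones, a ratio of 2.17. XLOC_001329 alone held 63.0% of the naive and 65.1% of the pretreated sum, so the sum mostly follows that locus. In bulk RNA, more cells that hold a transcript and more of it per cell cannot be told apart.

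**Figure D2:**
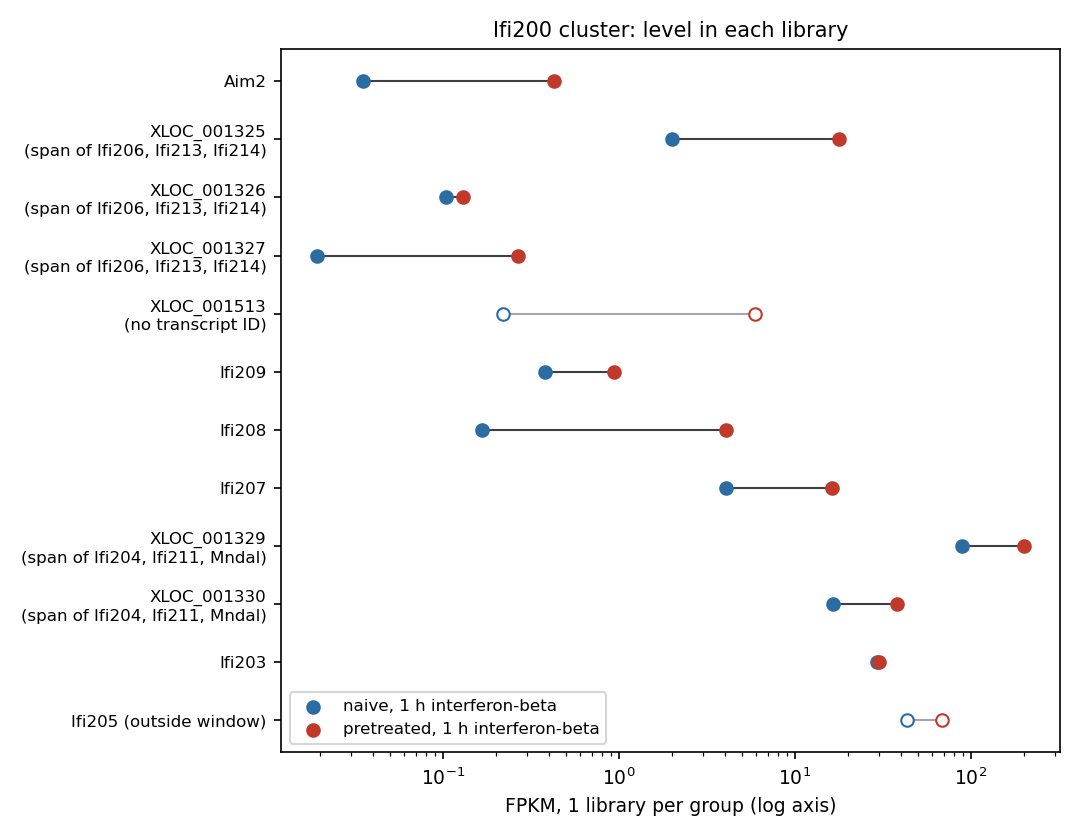
FPKM of each cluster locus in the naive 1 h library (blue) and the pretreated 1 h library (red) on a log axis, 1 library per group, in chromosome order. Open symbols are 2 loci that are no members: XLOC_001513, which has no transcript ID, and Ifi205, outside the window. Pretreated values lie to the right of naive values at all 10 loci, with Ifi203 (29.4 and 30.0 FPKM) showing the smallest gap.

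Among the named genes, Ifi208 had the largest ratio. Ifi208, also known as Pydc3, had 0.166 FPKM in naive cells and 4.03 FPKM in pretreated ones, a ratio of 24.3. Ifi207, also known as PyhinA, had 4.07 FPKM in naive cells and 16.2 FPKM in pretreated ones, a ratio of 3.99. The naive level of Ifi207 was thus about that of Ifi208 after pretreatment. The authors' deposited table called both genes, with a q-value listed as 0 for Ifi208 and of 4.68e-11 for Ifi207. That test compares the reads of 2 libraries and not the conditions.

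The spans that hold several genes also carried higher pretreated values. XLOC_001325, in the span of Ifi206, Ifi214 and Ifi213, had 2.01 FPKM in naive cells and 17.7 FPKM in pretreated ones, a ratio of 8.84 (q = 5.97e-06 in the authors' deposited table). The other 2 loci of that span were low in both libraries: XLOC_001326 had 0.104 and 0.129 FPKM, and XLOC_001327 had 0.0190 and 0.265 FPKM. The authors' deposited table left both untested. XLOC_001325 exceeded both by over an order of magnitude in each library.

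XLOC_001329 and XLOC_001330 lie in the span of Ifi204, Mndal and Ifi211; Ifi204 encodes p204, a nuclear PYHIN protein related to human IFI16. XLOC_001329 had the highest level of the cluster in both libraries, 89.7 FPKM in naive cells and 202 FPKM in pretreated ones, a ratio of 2.25. XLOC_001330 had 16.5 FPKM in naive cells and 38.2 FPKM in pretreated ones, a ratio of 2.31. The levels of these 2 loci differ several-fold while their ratios are close. The authors' deposited table called both (q = 3.44e-05 for XLOC_001329 and q = 0.000244 for XLOC_001330).

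Ifi203, a neighbour of these genes on the same strand, stayed at nearly the same value: 29.4 FPKM in naive cells and 30.0 FPKM in pretreated ones, a ratio of 1.02. The authors' deposited table did not call it (q = 0.955). It was among the loci with the highest naive levels in the cluster, and its promoter holds the same ISRE core as that of Ifi208, printed above, whose ratio was 24.3. The printed stretches of Ifi203 and Ifi208 equal each other at 28 of 40 bases. Whether the core bears on these ratios was not tested.

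Aim2 and Ifi209 were low in both libraries. Aim2 had 0.0352 FPKM in naive cells and 0.429 FPKM in pretreated ones, a ratio of 12.2, and the authors' deposited table left it untested. From loci without a transcript ID listed at 0 in 1 library, 1 pretreated read was estimated to be worth 2.03 naive reads. That is a median over 14 span lengths, with read numbers inferred from the deposited p-values. On this estimate the Aim2 ratio corresponds to 6.00 pretreated reads for each naive read. Ifi209, also known as Pyhin1, had 0.377 FPKM in naive cells and 0.935 FPKM in pretreated ones, a ratio of 2.48. In the authors' deposited table its p-value was 0.00914 and its q-value 0.0552, which missed the call at a q-value under 0.05. Both genes lack the ISRE core in the windows printed above, and a link between this and their values was not tested.

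How far these ratios are fixed by the reads can be read from the authors' deposited test statistic, taken as the log ratio divided by its standard error. The 95% interval of the ratio implied by it covers the error that the authors' model assigns to the reads of these 2 libraries and no variation between cultures. It ran from 12.0 to 49.5 for Ifi208, from 3.97 to 19.6 for XLOC_001325, and from 2.75 to 5.80 for Ifi207. For XLOC_001329 it ran from 1.63 to 3.10 and for XLOC_001330 from 1.61 to 3.32. Ifi203 had an interval from 0.735 to 1.42 and Ifi209 one from 1.25 to 4.91. Aim2 (2.57 to 57.9) was wide, and for Ifi203, XLOC_001326 (0.224 to 6.97) and XLOC_001327 (0.824 to 235) the interval included 1.

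**Figure D3:**
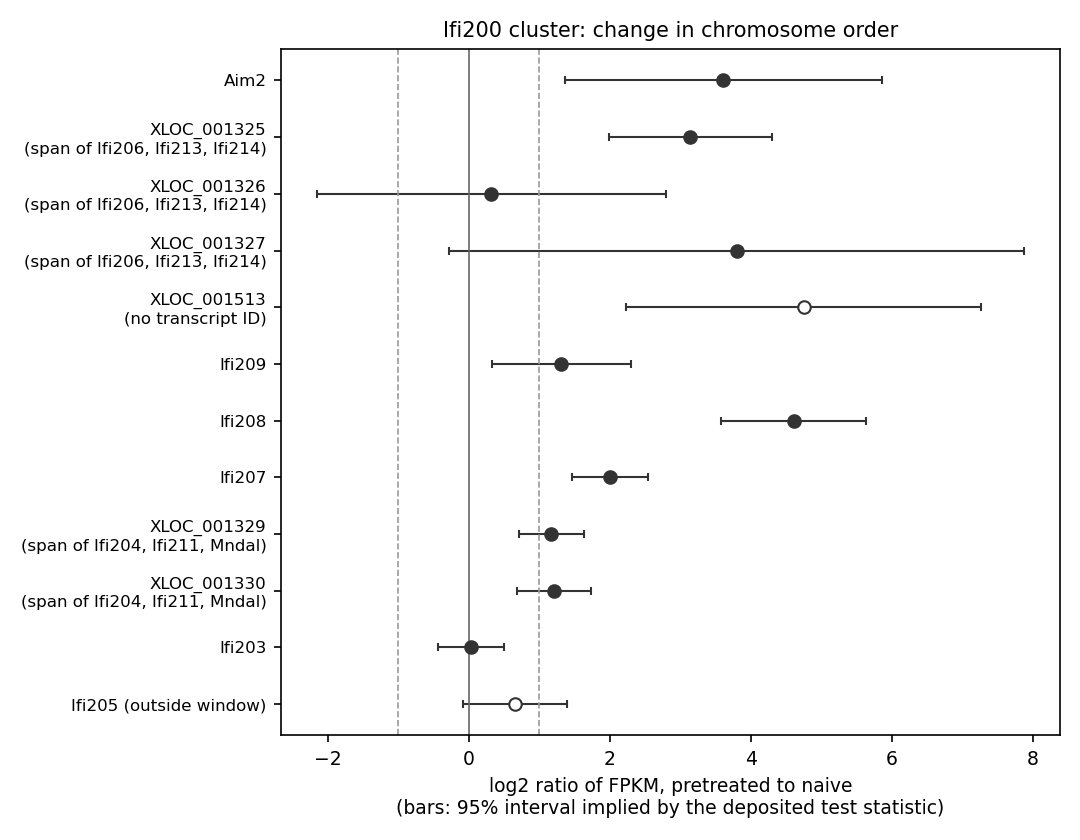
Log2 ratio of FPKM, pretreated to naive, for each cluster locus in chromosome order, with bars for the 95% interval implied by the deposited test statistic; the dashed lines mark a ratio of 2 in either direction, and open symbols are the 2 loci that are no members. Ifi208 lies farthest to the right among members and Ifi203 lies at 0, and the bars are wide for the loci with low values.

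To set the loci beside the rest of the table, changes were also taken as the difference of log2(FPKM + 1), which understates the change of low loci, over loci with a mean of at least 1 FPKM. This level was reached by 6 of the 10 cluster loci; Ifi208 reached it only through its pretreated value. Of the 6, 5 were at least 2-fold higher and 0 lower in pretreated cells, where 2.41% of the 9227 compared loci with a transcript ID were higher and 4.24% lower. Since the window was drawn on this contrast, nothing is read from the excess. On this scale the change was 2.64 for XLOC_001325, 2.11 for Ifi208, 1.77 for Ifi207, 1.16 for both XLOC_001329 and XLOC_001330, and 0.03 for Ifi203. The median of the 6 was 1.46, against -0.13 over all compared loci with a transcript ID. Among all 10228 compared loci, 63 had a larger change than XLOC_001325, 92 than Ifi208 and 120 than Ifi207. With a pseudocount of 0.1 FPKM, which weighs low loci more, these numbers were 81, 52 and 161, and Ifi208, at 3.96, passed XLOC_001325, at 3.08. The authors' deposited table called 5 of the 7 cluster loci it tested, all 5 higher, where 3.92% of tested loci with a transcript ID were called higher and 10.8% lower.

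**Figure D4:**
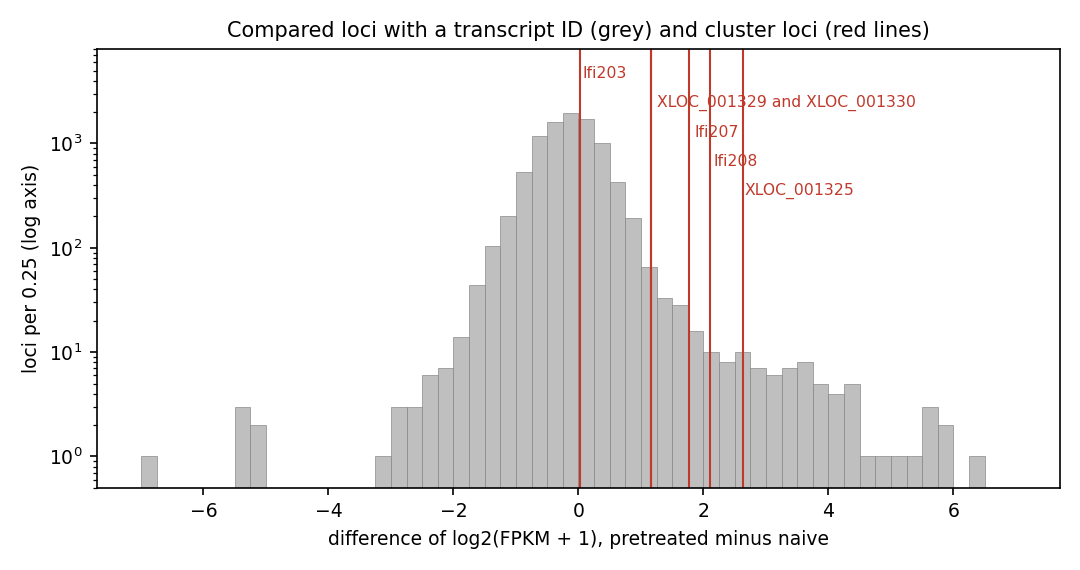
Difference of log2(FPKM + 1), pretreated minus naive, for 9227 compared loci with a transcript ID (grey, number of loci per step of 0.25 on a log axis), with the 6 compared cluster loci as red lines. Ifi203 (0.03) lies in the body of the distribution and the other 5 lie from 1.16 to 2.64, on its right flank.

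The edges of the window were followed outward by 1 Mb on each side, which held 13 further loci with a transcript ID, 8 before and 5 after the window. Of these 13, 10 had a higher value in pretreated than in naive cells. Only 3 of the 13 reached a mean of 1 FPKM, and 0 of these 3 differed by 2-fold. The first locus beyond the window was Ifi205 (XLOC_001333, 175942129 to 175961886), itself a PYHIN gene. It had 43.6 FPKM in naive cells and 68.6 FPKM in pretreated ones, a ratio of 1.57 with an implied 95% interval that included 1, and the authors' deposited table did not call it (q = 0.239). Its level in naive cells was second to XLOC_001329 among the PYHIN loci. On the other side, the nearest locus was Dusp23, a phosphatase gene, at 1.12 and 1.34 FPKM. Tagln2, an actin-binding protein gene, was the third locus with a mean of at least 1 FPKM, at 457 and 260 FPKM.

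Reads from similar copies could be divided between genes in ways that the table does not show. Among GENCODE transcripts, the share of 50-base words that a gene has in common with another gene of the cluster was 72.8% for Ifi211 and 33.4% for Ifi209, all of the latter shared with Ifi214. It was 20.8% for Ifi208, 19.1% for Ifi204, 18.6% for Ifi205, 17.3% for Mndal and between 14.5% and 15.8% for Ifi206, Ifi214 and Ifi213. For Ifi207 (4.46%), Ifi203 (3.87%) and Aim2 (0) little or nothing was shared. The read length and the treatment of multiply mapped reads are not given in the sources used here. Values of Ifi209, Ifi208, Ifi205 and the shared spans are therefore uncertain in this respect, and less so those of Ifi207, Ifi203 and Aim2.

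Genes that work with the DNA sensors were taken from a list of 18 genes outside the cluster, of which 7 were matched to a locus and 6 reached a mean of 1 FPKM. The 11 without a matched locus were Cgas, Sting1, Irf3, Pycard, Gsdmd, Il1b, Il18, Nlrp3, Nlrc4, Trex1 and Tlr9. Of the 6, 2 were at least 2-fold higher in pretreated cells and 0 lower, beside 2.41% and 4.24% of all compared loci with a transcript ID. Zbp1, a sensor of Z-form nucleic acids, had 4.003 FPKM in naive cells and 59.8 FPKM in pretreated ones. Irf7, a transcription factor that drives interferon genes, had 13.2 FPKM in naive cells and 179 FPKM in pretreated ones. Within 2-fold were Tbk1, the kinase downstream of the DNA sensor pathway (22.6 and 19.5 FPKM), Casp4, an inflammatory caspase (6.18 and 8.005 FPKM), Ddx41, a helicase gene (6.46 and 9.87 FPKM) and Polr3a, a subunit of RNA polymerase III (2.37 and 4.02 FPKM). Casp1, the protease that the Aim2 inflammasome activates, was low at 0.190 and 0.258 FPKM, so both Aim2 and its effector protease lay below 1 FPKM in both libraries.

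The labelled cell type was checked on markers. Of 8 fibroblast markers 6 were matched; Vim had 917 FPKM in naive cells and 704 FPKM in pretreated ones and Col1a2 521 and 293 FPKM, while Thy1 was low (0.144 and 0.293 FPKM). Col3a1 had 111 and 69.1 FPKM, Dcn 42.9 and 29.7 FPKM and Pdgfrb 45.0 and 47.8 FPKM. The matched fibroblast markers summed to 1637 FPKM in naive cells and 1144 FPKM in pretreated ones, mostly from Vim and Col1a2. Of the 5 that reached a mean of 1 FPKM, 0 differed by 2-fold, and the authors' deposited table called none. Myeloid cells express PYHIN genes at high levels, and of 7 macrophage markers 2 were matched, Cd68 at 0.788 and 1.09 FPKM and Csf1r at 0.0479 and 0.0168 FPKM. The other 5, among them Ptprc, had no matched locus. Of 3 endothelial and 3 epithelial markers 1 each was matched, Pecam1 at 0.0629 and 0.0204 FPKM and Krt18 at 0.0940 FPKM in pretreated ones and listed at 0 in naive cells. The part of other cell types in the cluster's values was not tested.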

How the data were processed

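RNA of 4 samples, 1 per group, was sequenced; 2 libraries were used, and the replicate number pairs nothing. The submitters' processing notes name TopHat, Cufflinks 1.2.1 and mm9; the annotation, the filters and the scaling between libraries are not given in the sources used here. Per the file headers, the authors deposited an FPKM value per locus and library, with the log2 fold change, its test statistic, a p-value and a q-value in the layout of Cuffdiff. No read counts are given, and the absolute depth is unknown. Relative to the naive library, the depth of the pretreated one was estimated at 0.492. The estimate rests on loci without a transcript ID listed at 0 in 1 library. Their deposited p-values were taken to be those of a few reads. The p-values of 15334 loci followed from the statistic as two-sided normal values to within 2.86e-06.

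The 24 loci of status FAIL or HIDATA were left out of comparisons. Changes used a pseudocount of 1 FPKM and a mean of at least 1 FPKM, with Python 3.11.15, pandas 2.3.3 and scipy 1.17.1. Intervals are the log2 ratio with 1.96 standard errors. Deposited starts were raised by 1. Of 38980 transcript IDs, 0 were in the name tables; distances named 9525 of 15883 loci (60.0%) from 3614 anchors, using GENCODE M21 and RefSeq (GRCm38.p6), with no position carried between builds. The counts of changed loci and the naming were tested on simulated data, the naming with annotated genes shifted by fixed offsets. The other steps were not tested in this way. Every cluster locus is described; members and lists were chosen with earlier results of these data known. Pseudocount, filter, centring, threshold and shared spans were varied. A rule keeping only loci wholly inside the window was also run and removed none.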

Additional observations from a re-analysis of the deposited data

Results flagged for a closer look

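XLOC_001513 lies in the window but has no transcript ID, so it is no member; it was singled out because it carries a signal outside the loci described above. It shares the span of Ifi206, Ifi214 and Ifi213 and had 0.220 FPKM in naive cells and 5.91 FPKM in pretreated ones, a ratio of 26.9. Its implied standard error on the log2 scale was 1.29, against 0.523 for Ifi208, so this ratio is less closely fixed by the reads. The authors' deposited table called XLOC_001513 with a q-value of 0.00431. Which gene its reads come from was not resolved.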

How the results depend on the processing

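The number of cluster loci at least 2-fold higher was 5 as described. It stayed at 5 with a pseudocount of 0.1 FPKM, without a filter and after centring on the median of all compared loci. These settings could only raise it. Keeping only loci wholly inside the window removed none of the 10 and so tests nothing. The number was 4 at a mean of at least 5 FPKM. It was 2 at a 4-fold threshold and 2 when loci sharing a span were left out, since only 3 compared loci then remained; the authors' calls then numbered 2 of 4 tested loci, against 5 of 7. The number of lower loci was 0 under all 7 alternatives. No setting could give another number, since all 10 loci were higher in pretreated cells and centring raises every change. The median log2 change of 1.46 was 1.59 with the lower pseudocount, 0.83 without a filter, 1.16 at 5 FPKM, 1.62 after centring and 1.77 without shared spans. Of single loci, 3 of 10 moved by more than their implied standard error with the lower pseudocount: Ifi208 from 2.11 to 3.96, Aim2 from 0.46 to 1.97 and Ifi209 from 0.49 to 1.12. After centring 0 of 10 did so. Centring subtracted a median of -0.159 from every change, less in size than the smallest implied standard error, 0.236, so none could. A reversal was not possible under either setting, since every change was positive and both settings raise it. With 1 library per group, leaving out a replicate gives no value. No paired analysis was possible because no group has more than 1 library. The implied intervals were widest at the low loci Aim2, XLOC_001326 and XLOC_001327, which the authors' deposited table left untested; the filter behind this is not given in the sources used here.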
